A study of Mus musculus with 12 samples.

Results

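Microtubules are polymers of α- and β-tubulin heterodimers, and mouse cells make each subunit from several genes. The 10 tubulin genes described here were taken from a list of tubulins whose mRNA stability is known to be autoregulated, by matching the gene identifiers of the count table to symbols in the GENCODE mouse annotation. They were 4 α-tubulins (Tuba1a, Tuba1b, Tuba1c and Tuba4a) and 6 β-tubulins (Tubb2a, Tubb2b, Tubb3, Tubb4b, Tubb5 and Tubb6), out of 51467 genes in the table. The rule used no measured value, but the members were chosen with earlier results of these data known.

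Tubulin mRNAs are known for a feedback loop that acts on their stability. When free tubulin dimers build up, the factor TTC5 binds the first residues of a tubulin chain as it leaves the ribosome, and with the adaptor SCAPER it brings the CCR4-NOT deadenylase to the mRNA, which is then degraded. When dimers are drawn into microtubules, this decay slows and tubulin mRNA accumulates.

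The cells were naive mouse embryonic stem cells (ESCs), grown with serum, LIF and the 2i inhibitors PD0325901 and CHIR99021, and the epiblast-like cells (EpiLCs) collected about 56 hours after LIF and 2i were withdrawn from them. The labels name no cell line, genotype or age. For its differentiation experiments the study lists a mouse ESC line that carries mCherry and GFP reporters of microRNA genes. All cultures, of both cell types, received 500 µM 4-thiouridine (4sU) for 30 minutes, and each RNA extract was divided between capture of the labelled, nascent RNA (4sU libraries) and depletion of ribosomal RNA (total libraries). Each of the 4 groups (ESC 4sU, ESC total, EpiLC 4sU and EpiLC total) had 3 libraries. The study asked what part transcription and mRNA stability each play in the mRNA changes of the ESC to EpiLC transition.

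The 10 genes are shown first by the coding bases of the residues that the feedback loop reads. The first 30 coding bases of 9 of them follow, 5′ to 3′, from the GENCODE M21 transcripts (build GRCm38, also called mm10), with the first 4 codons, which encode the residues that TTC5 recognises, in capitals.
Tuba1a: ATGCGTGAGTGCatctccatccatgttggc
Tuba1b: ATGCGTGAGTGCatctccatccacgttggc
Tuba1c: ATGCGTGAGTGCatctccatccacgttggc
Tuba4a: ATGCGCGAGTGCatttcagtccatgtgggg
Tubb2a: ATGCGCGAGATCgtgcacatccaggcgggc
Tubb2b: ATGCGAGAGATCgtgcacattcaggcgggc
Tubb3: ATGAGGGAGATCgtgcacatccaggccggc
Tubb4b: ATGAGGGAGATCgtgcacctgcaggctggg
Tubb5: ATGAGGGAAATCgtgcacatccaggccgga

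The 10 genes spelled their first 4 codons in 7 ways. Of 21591 annotated coding genes that start with ATG, 11 (0.0509%) opened with any of these 12-base spellings. They were the 10 tubulins and Gm49450, a gene model that was not in the count table. The spellings were taken from the 10 tubulins, which are therefore among the 11 by construction. Genes that encode the same residues with other codons were not searched for, so the share does not describe the recognised residues. Tuba1a, Tuba1b and Tuba1c share a spelling, as do Tubb3 and Tubb4b.

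The α-tubulin genes Tuba1b (chr15:98931425-98934565, minus strand), Tuba1a (chr15:98949841-98953551, minus strand) and Tuba1c (chr15:99029891-99038105, plus strand) lay side by side on chromosome 15, and Tuba4a lay on chromosome 1 (chr1:75214228-75219294, minus strand). The β-tubulin genes Tubb2a (chr13:34074274-34078007, minus strand) and Tubb2b (chr13:34126748-34130354, minus strand) were also neighbours. Tubb3 (chr8:123411424-123422015, plus strand), Tubb4b (chr2:25222160-25224702, minus strand), Tubb5 (chr17:35833921-35838306, minus strand) and Tubb6 (chr18:67390717-67402748, plus strand) stood alone. These positions are those of the count table, in mm10.

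The principal transcript of each of the 10 genes had 4 exons, against a median of 9 exons over the coding genes kept in the analysis. Their 3′ UTRs were 101 to 1394 bases long (median 265), and the median over all such genes was 1066. Tuba1c had the shortest, at the 4.22 percentile of all 3′ UTRs, and Tuba4a the longest, at the 59.5 percentile. The seed match AGCACTT of the miR-290 and miR-302 microRNA families was found on the sense strand of 0 of the 10 3′ UTRs. It was present in 16.5% of 12154 3′ UTRs and in 7.26% of the 6736 whose length lay within the range of the tubulins. The AU-rich heptamer TATTTAT was present in the 3′ UTR of Tubb3 alone, where it occurred 2 times, and in 17.1% of 3′ UTRs within that range of lengths. A missing match says only that these letters are not in the window searched.

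Because the isotypes are close relatives, part of their sequence cannot place a 50-base read. The coding sequences of Tuba1a and Tuba1b were 98.3% identical, those of Tuba1b and Tuba1c 97.9%, and those of Tubb2a and Tubb2b 96.5%. Only 17.8% of the 50-base windows of Tuba1b were found in no annotated gene at another locus, against 35.7% for Tuba1a and 39% for Tuba1c. The share was 49.1% for Tubb4b, 50.4% for Tubb2a and 60.7% for Tubb2b, and it was 98.9% or more for Tuba4a, Tubb5, Tubb3 and Tubb6. Genes overlapping at the same locus were left out of this count. On the opposite strand, Stk16 overlapped 47.7% of the windows of Tuba4a and Fam166a 4.65% of those of Tubb4b, and the reads were counted by strand. The count table holds only reads with a unique position. Levels of Tuba1a, Tuba1b, Tuba1c, Tubb2a, Tubb2b and Tubb4b therefore rest on part of each transcript, and a misplaced read between close copies would not be seen.

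**Figure D1:**
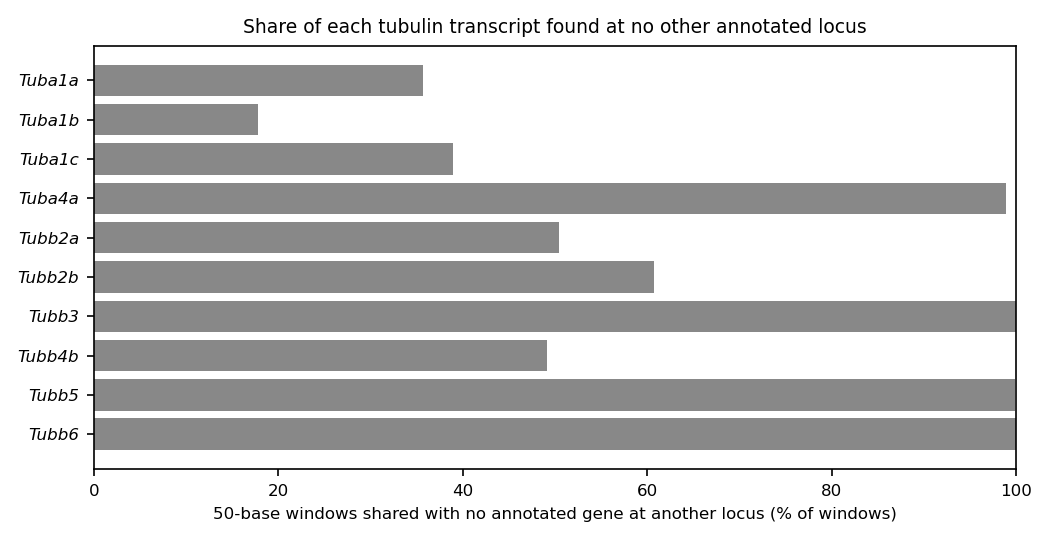
Share of each listed tubulin transcript whose 50-base windows occur in no annotated gene at another locus (x axis, percent of windows; a bar per gene), overlapping genes of the same locus left out. Tuba1b was lowest at 17.8%, and Tubb3 and Tubb6 reached 100%.

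Annotated pseudogenes that share windows with the α-tubulins of chromosome 15 took few reads. For Tuba1b, 14 such pseudogenes were annotated and 11 were in the count table. Of these 11, 10 had a read, and their summed level was 3.15 to 4.73 CPM (reads scaled to a fixed library total) in the ESC total libraries and 5.12 to 6.36 CPM in the EpiLC total libraries. For Tubb4b the 3 pseudogenes summed to at most 1.28 CPM in any total library, and for Tubb2a the 2 pseudogenes to at most 0.492 CPM.

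Gene reads summed to 3097693 to 5385644 in the 4sU libraries and to 9300845 to 21975684 in the total libraries, and nascent values carried more counting error. Intervals given here for fitted changes cover the spread between libraries. The study calls its replicates biological, but the labels do not say how the 3 libraries of a group were separated, and p-values measure the spread between these libraries. Over the 14731 genes that reached 3 CPM in 3 or more libraries, Spearman's rho between replicates was 0.985 or more, except for ESC 4sU replicate 3, which reached 0.97 and 0.976 with the other ESC 4sU libraries. ESC total replicate 3 also had the lower values within its group (0.985 and 0.985, against 0.998 between replicates 1 and 2). The cell types carried their markers in total RNA. In EpiLCs, 7 of 7 naive pluripotency genes were called lower (11.2% of all genes). Of 6 formative and primed genes, 5 were called higher (16.3% of all genes). Of 4 general pluripotency genes, 1 was called higher (Lin28a) and 1 lower (Sox2). In bulk RNA, a change in the number of cells of a type and a change in the RNA of each cell cannot be told apart.

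All 10 tubulins passed the expression filter. Levels are CPM after TMM scaling, a trimmed-mean correction for library composition. Changes are log2 fold changes, EpiLC minus ESC, with their standard error (SE), from limma-voom fitted to all 14731 genes and 12 libraries. Called genes had an absolute log2 change over 1 and a p under 0.05 after Benjamini-Hochberg adjustment over all genes.

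Total RNA answers which tubulin mRNAs changed in level. In EpiLCs, Tuba1a and Tubb6 were upregulated and Tubb2b and Tubb2a were downregulated, while the most abundant isotype, Tubb5, and the α-tubulins Tuba1b and Tuba1c stayed close to their ESC levels. The count was 2 of 10 higher, where 16.3% of all genes were called higher, and 2 of 10 lower, where 11.2% were called lower. Both shares of the tubulins were thus near those of all genes. The median change of the 10 was 0.01, beside 0.02 for all genes. Of the 4 α-tubulins 1 was called higher and 0 lower, and of the 6 β-tubulins 1 was called higher and 2 lower.

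Tuba1a encodes an α-tubulin that is prominent in the developing nervous system. Its level in total RNA was 98.7, 98.0 and 93.2 CPM in the 3 ESC libraries and 292.5, 286.4 and 275.4 CPM in the 3 EpiLC libraries. All EpiLC libraries lay far above all ESC libraries, with little spread within either. The log2 change was 1.56 ± 0.07 (SE, n = 3 per group, limma-voom adjusted p = 2.734e-10), and it ranged from 1.52 to 1.59 when libraries were left out.

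Tubb6 encodes the class V β-tubulin. It was at 124.8, 131.1 and 136.9 CPM in ESC total RNA and at 270.9, 275.9 and 280.9 CPM in EpiLC total RNA. The groups were well apart, and the fold of the means was 2.11. This gave a log2 change of 1.08 ± 0.12 (SE, n = 3 per group, limma-voom adjusted p = 2.9e-06), close to the fold threshold, and 1.03 to 1.11 when libraries were left out.

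Tubb2b and its neighbour Tubb2a encode β-tubulins that are abundant in brain. Tubb2b was at 131.0, 134.3 and 188.6 CPM in ESC total RNA and at 54.0, 48.9 and 45.6 CPM in EpiLC total RNA. ESC replicate 3 was the highest, and every EpiLC library was below every ESC library. The fitted log2 change was -1.58 ± 0.13 (SE, n = 3 per group, limma-voom adjusted p = 8.852e-08), and it stayed called in each fit that left out a library (-1.69 to -1.43).

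Tubb2a was at 37.8, 39.6 and 58.0 CPM in ESC total RNA and at 20.2, 21.5 and 20.6 CPM in EpiLC total RNA. The groups did not overlap, but ESC replicate 3 stood above its group. The log2 change was -1.07 ± 0.21 (SE, n = 3 per group, limma-voom adjusted p = 0.0004077). When ESC total replicate 3 was left out it was -0.90, short of the fold threshold, with an adjusted p of 0.0003145, and the call was lost.

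Tuba4a, an α-tubulin found in muscle and nerve among other tissues, fell by less than the fold threshold. It was at 156.5, 145.9 and 110.4 CPM in ESC total RNA and at 97.2, 94.3 and 106.7 CPM in EpiLC total RNA, so that ESC replicate 3 came close to the highest EpiLC library. The fitted log2 change was -0.47 ± 0.11 (SE, n = 3 per group, limma-voom adjusted p = 0.00234).

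Tubb3 encodes the class III β-tubulin, the isotype widely used as a marker of neurons. It was at 59.0, 59.2 and 55.2 CPM in ESC total RNA and at 40.2, 54.4 and 50.0 CPM in EpiLC total RNA. The ESC libraries lay slightly above the EpiLC libraries, which varied more. The log2 change of -0.27 ± 0.12 missed the threshold (SE, n = 3 per group, limma-voom adjusted p = 0.06297).

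The other 4 tubulins had no call and small changes in total RNA. Tubb5, the class I β-tubulin found in nearly all cells, was at 3227, 2959 and 2702 CPM in ESCs and at 3135, 3372 and 3369 CPM in EpiLCs, and the groups overlapped. Its log2 change was 0.15, with a 95% confidence interval of -0.01 to 0.32 (adjusted p = 0.09719). Tubb4b, the class IVb β-tubulin, was at 354.0, 326.6 and 296.9 CPM in ESCs and at 359.2, 365.8 and 360.0 CPM in EpiLCs. The EpiLC libraries were just above the ESC libraries, with a log2 change of 0.15 and an interval of -0.07 to 0.37 (adjusted p = 0.2079).

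The broadly expressed α-tubulins Tuba1b and Tuba1c overlapped between cell types. Tuba1b was at 76.5 to 81.9 CPM in ESC total RNA and 78.3 to 85.3 CPM in EpiLC total RNA, with a log2 change of 0.04 (95% confidence interval -0.15 to 0.23). Tuba1c was at 84.2 to 92.3 CPM and 80.7 to 91.4 CPM, with a log2 change of -0.02 (95% confidence interval -0.29 to 0.25). For these genes a fold near that of Tuba1a lies outside the interval, although most of each transcript is shared with close copies.

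**Figure D2:**
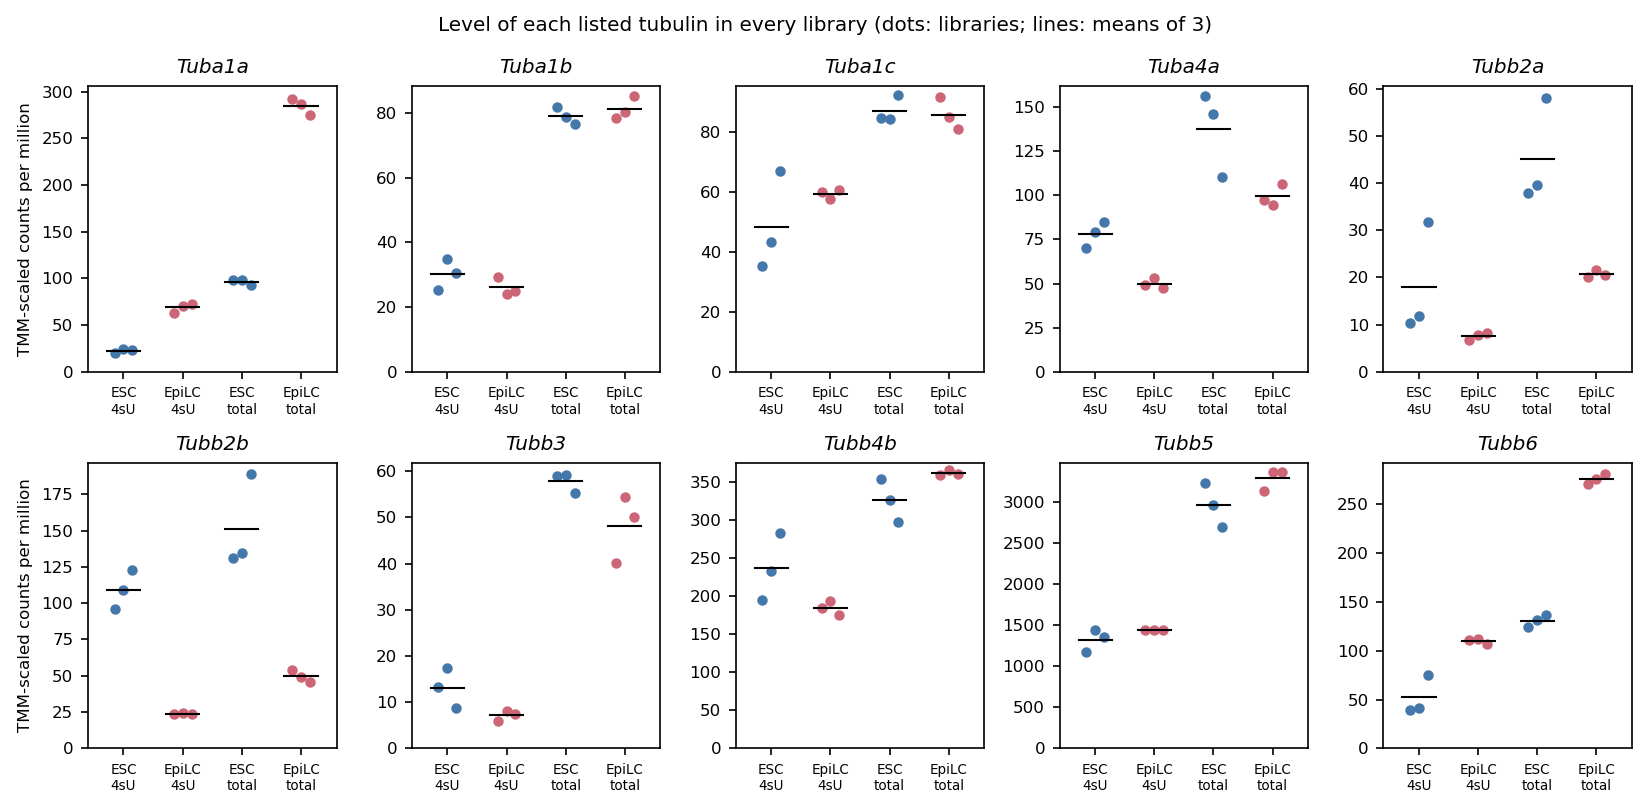
TMM-scaled CPM (y axis, linear, from 0, a separate scale for each gene) of the 10 tubulins in each library of the 4 groups (x axis; dots are libraries in the order of their numbers, lines are means of 3; blue ESC, red EpiLC). Tuba1a and Tubb6 are higher in EpiLCs in both assays, Tubb2b and Tubb2a are lower, and ESC replicate 3 stands above its group for Tubb2a.

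The 4sU libraries answer how the newly made RNA of the same genes changed. Nascent Tuba1a and Tubb6 rose and nascent Tubb2b fell, the same directions as in total RNA. The count was 2 of 10 higher, where 11.9% of all genes were called higher, and 1 of 10 lower, where 13.5% were called lower. The median nascent change of the 10 was -0.27, beside -0.09 for all genes. With the adjusted p alone, 4 of 10 were lower (28.8% of all genes), the added genes being Tuba4a, Tubb3 and Tubb4b.

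Nascent Tuba1a was at 19.6, 24.7 and 23.6 CPM in ESC 4sU RNA and at 63.1, 70.8 and 73.0 CPM in EpiLC 4sU RNA. Each EpiLC library was well above each ESC library. On the log2 scale the change was 1.60 ± 0.12 (SE, n = 3 per group, limma-voom adjusted p = 8.739e-08).

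Nascent Tubb6 was at 39.7, 41.5 and 75.7 CPM in ESCs and at 111.4, 111.7 and 106.8 CPM in EpiLCs. ESC replicate 3 lay between the other ESC libraries and the EpiLC libraries. The log2 change was 1.18 ± 0.16 (SE, n = 3 per group, limma-voom adjusted p = 3.403e-05), and it stayed called in each fit that left out a library.

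Nascent Tubb2b was at 95.7, 109.0 and 122.6 CPM in ESCs and at 23.3, 24.2 and 23.7 CPM in EpiLCs, groups that were far apart. On the log2 scale the change was -2.18 ± 0.19 (SE, n = 3 per group, limma-voom adjusted p = 4.752e-07). Of the 10 tubulins, this was the change of greatest size in either assay.

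Nascent Tubb2a rested on few reads. It had 51, 66 and 117 reads in ESC 4sU RNA and 29, 37 and 28 in EpiLC 4sU RNA, or 10.4, 11.8 and 31.7 CPM against 6.83, 7.84 and 8.31 CPM. Its ESC level depended on replicate 3, which stood far above the other 2 libraries. The log2 change was -0.95 ± 0.42 and was not called (SE, n = 3 per group, limma-voom adjusted p = 0.07416). By edgeR's quasi-likelihood test it was -1.18 (adjusted p = 0.01438) and by DESeq2 -1.16 (adjusted p = 0.00279), both past the thresholds. When ESC 4sU replicate 3 was left out, the limma-voom change was -0.48 (adjusted p = 0.2431), and without both ESC replicate 3 libraries it was -0.57 (adjusted p = 0.01876), short of the fold threshold.

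Nascent Tubb3 also had few reads, 65, 97 and 32 in ESCs and 25, 38 and 25 in EpiLCs. Its level was 13.3, 17.4 and 8.68 CPM in ESCs and 5.89, 8.05 and 7.42 CPM in EpiLCs, with ESC replicate 3 just above the EpiLC libraries. The fitted log2 change was -0.88 ± 0.30, short of the fold threshold (SE, n = 3 per group, limma-voom adjusted p = 0.02342). When ESC 4sU replicate 3 was left out it was -1.04 (adjusted p = 0.008395) and past it.

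Nascent Tubb4b was at 194.6, 232.4 and 283.1 CPM in ESCs and at 183.8, 193.7 and 175.1 CPM in EpiLCs, so the lowest ESC library almost met the highest EpiLC library. This gave a log2 change of -0.34 ± 0.12 (SE, n = 3 per group, limma-voom adjusted p = 0.02395). Nascent Tuba4a was at 69.9, 79.1 and 84.9 CPM in ESCs and at 49.2, 53.0 and 47.5 CPM in EpiLCs, with a log2 change of -0.63 (adjusted p = 0.002677). Both changes passed the adjusted p and not the fold threshold. That of Tubb4b depended on the processing. It was -0.15 (adjusted p = 0.2664) when ESC 4sU replicate 3 was left out, and its adjusted p was 0.05439 with median-of-ratios scaling and 0.06049 with TMM within each assay.

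The other 3 tubulins overlapped between the cell types in nascent RNA. Nascent Tuba1b had a log2 change of -0.21 (95% confidence interval -0.52 to 0.10), nascent Tubb5 0.13 (95% confidence interval -0.06 to 0.31) and nascent Tuba1c 0.38 (95% confidence interval 0.02 to 0.74, adjusted p = 0.06803). For Tuba1c, ESC 4sU replicate 3 (66.7 CPM) was above all 3 EpiLC libraries (57.6 to 60.5 CPM), while ESC replicates 1 and 2 were below them (35.2 and 43.1 CPM). When ESC 4sU replicate 3 was left out, the change of Tuba1c was 0.66 (adjusted p = 0.0003702), and without both ESC replicate 3 libraries it was 0.57 (adjusted p = 0.0002091), past the adjusted p and not the fold threshold.

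The interaction of cell type and assay answers whether the mRNA of a gene changed more or less than its nascent RNA, which the study read as a change in mRNA stability. None of the 10 tubulins was called by limma-voom, 0 higher and 0 lower, where 1.24% of all genes were called higher and 0.305% lower. The count was also 0 by edgeR's quasi-likelihood test, by DESeq2 and with the adjusted p alone (2.72% of all genes higher and 1.88% lower). At an unadjusted p under 0.05, limma-voom gave 2 tubulins (Tubb4b and Tubb2b), edgeR 3 and DESeq2 2, all of them higher. With calls this rare among all genes, 0 of 10 is not a result about tubulins as a class. The median stability change of the 10 was 0.10, beside 0.11 for all genes.

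The intervals say what sizes the data allow. For Tuba1a, whose mRNA and nascent RNA rose alike, the stability change was -0.05 with a 95% confidence interval of -0.34 to 0.25. For Tubb5 it was 0.03 (interval -0.22 to 0.27) and for Tubb6 -0.10 (interval -0.54 to 0.34). In these 3 genes, as in Tubb4b, Tuba1b, Tuba4a and Tuba1c below, a stability change as large as the fold threshold lay outside the interval.

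For Tubb4b, with a nascent change of -0.34 and an mRNA change of 0.15, the stability change was 0.49 ± 0.15 (SE, n = 3 per group, limma-voom adjusted p = 0.08145). For Tubb2b, whose nascent RNA fell further than its mRNA, it was 0.60 ± 0.23 (SE, n = 3 per group, limma-voom adjusted p = 0.1426). Neither passed the threshold over all genes. The interval of Tubb4b was 0.16 to 0.82, short of the fold threshold, and that of Tubb2b was 0.10 to 1.09, which reached past it.

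The remaining intervals included 0. Tubb3 had a stability change of 0.61 with an interval of -0.09 to 1.30, and Tubb2a of -0.12 with an interval of -1.13 to 0.89, so for both a change past the fold threshold lay within the interval. The values were 0.25 for Tuba1b (interval -0.11 to 0.61), 0.16 for Tuba4a (interval -0.24 to 0.56) and -0.40 for Tuba1c (interval -0.85 to 0.05).

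The stability values depended on the ESC replicate 3 libraries. Without both of them, still none of the 10 passed the fold threshold, but 5 passed the adjusted p alone, where 13.7% of all genes did so higher and 6.69% lower. Higher were Tubb3 at 0.81 (limma-voom adjusted p = 0.04606), Tubb2b at 0.69 (adjusted p = 0.001926) and Tubb4b at 0.31 (adjusted p = 0.03256). Lower were Tuba1c at -0.56 (adjusted p = 0.005408) and Tubb6 at -0.31 (adjusted p = 0.04007).

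**Figure D3:**
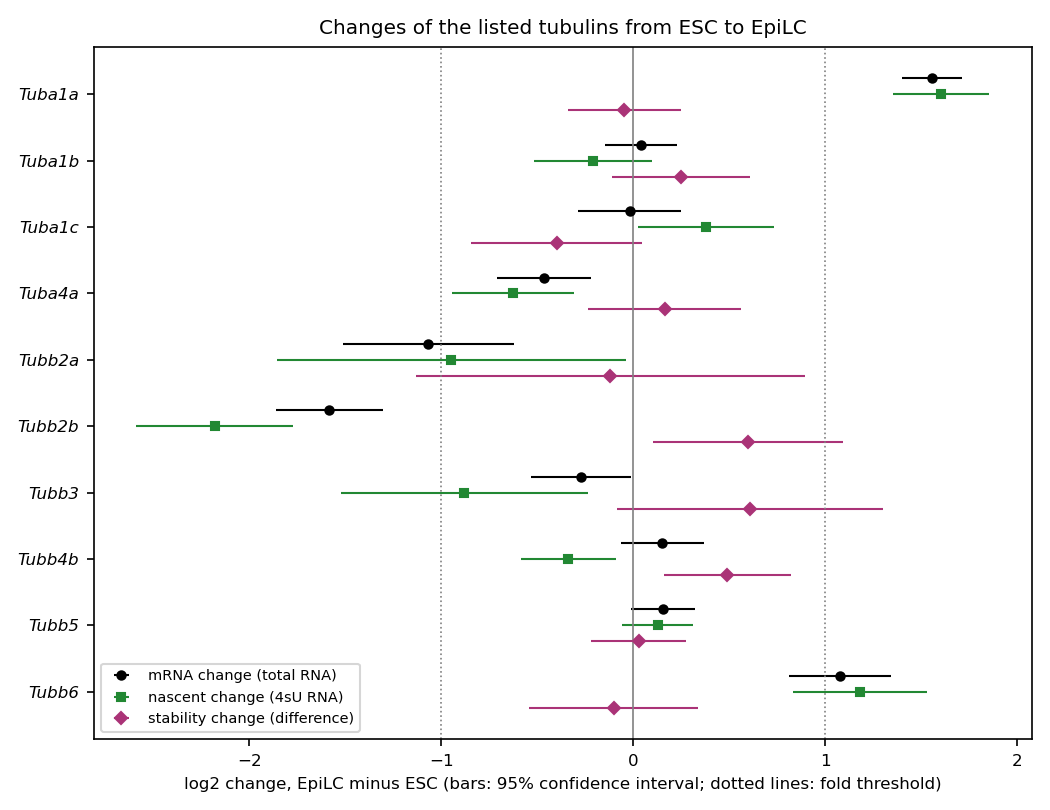
Log2 change from ESC to EpiLC (x axis) of the 10 tubulins (y axis) in total RNA (black circles), in 4sU RNA (green squares) and their difference, the stability change (purple diamonds), with 95% confidence intervals as bars. The mRNA and nascent changes of Tuba1a (1.56 and 1.60) and Tubb6 (1.08 and 1.18) lie side by side, and the intervals of the stability change include 0 for 8 of the 10 genes.

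Within each cell type, relative mRNA stability was taken as log2 of total over 4sU CPM. It is relative because every library was scaled to its own composition. Same-numbered 4sU and total libraries were set against each other, although the labels do not say which libraries came from the same extract. In both ESCs and EpiLCs, 10 of 10 tubulins lay above the median of all genes kept, which was 0.03 in ESCs and 0.15 in EpiLCs. They also lay above the medians of the 12312 protein-coding genes (0.30 and 0.37). The median of the 10 was 1.28 in ESCs and 1.26 in EpiLCs. Their percentiles among all genes ran from 61.3 to 95.5 in ESCs and from 61.6 to 99.1 in EpiLCs.

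Tubb3 had the highest mean in both cell types. Its relative stability was 2.15, 1.77 and 2.67 in the ESC pairs and 2.77, 2.76 and 2.75 in the EpiLC pairs. The lowest EpiLC value was above the highest ESC value, but the stability change of Tubb3 was not called (0.61, limma-voom adjusted p = 0.2845). Its 4sU libraries held 65, 97 and 32 reads in ESCs and 25, 38 and 25 in EpiLCs. With so few reads, and pairs set by library number, the small spread of the EpiLC values does not measure their precision. The mean was 2.20 ± 0.45 (SD, n = 3) for ESCs and 2.76 ± 0.01 (SD, n = 3) for EpiLCs, where it was at the 99.1 percentile. That is the gene whose 3′ UTR held the AU-rich heptamer, and a link between them was not tested.

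Tuba1a was next, at 2.33, 1.99 and 1.98 in ESCs and 2.21, 2.02 and 1.92 in EpiLCs, at the 95.3 percentile in both. Its values interleaved between the cell types. In ESCs it overlapped with Tubb3 and was above it in replicates 1 and 2. Without both ESC replicate 3 libraries, the fitted value was 2.12 for Tuba1a and 1.92 for Tubb3, so the first place of Tubb3 in ESCs rested on replicate 3. Tuba1a lay above Tubb2a (1.49 ± 0.54, SD, n = 3), the third in order, without overlap.

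From there on in ESCs, each tubulin overlapped with the next in order. These were Tubb2a, Tuba1b (1.40 ± 0.27), Tubb6 (1.39 ± 0.46), Tubb5 (1.17 ± 0.25), Tuba1c (0.90 ± 0.40), Tuba4a (0.81 ± 0.40), Tubb4b (0.47 ± 0.40) and Tubb2b (0.46 ± 0.16), each a mean with its SD over 3 pairs. In EpiLCs the pairs were closer together. Tubb3, Tuba1a and Tuba1b (1.64 ± 0.20) followed each other without overlap, and Tuba1c (0.53 ± 0.10) lay below the rest, next to Tubb4b (0.97 ± 0.06).

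Some close relatives differed in relative stability. Tubb2a lay above Tubb2b without overlap in both cell types, with means of 1.49 against 0.46 in ESCs and 1.44 against 1.06 in EpiLCs. Tuba1a lay above Tuba1c in the same way, 2.10 against 0.90 in ESCs and 2.05 against 0.53 in EpiLCs. Tuba1b and Tuba1c overlapped in ESCs (1.175 to 1.704 against 0.469 to 1.262) and not in EpiLCs. The values of Tubb2a rest on few nascent reads. All of these are levels within libraries and were not tested.

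**Figure D4:**
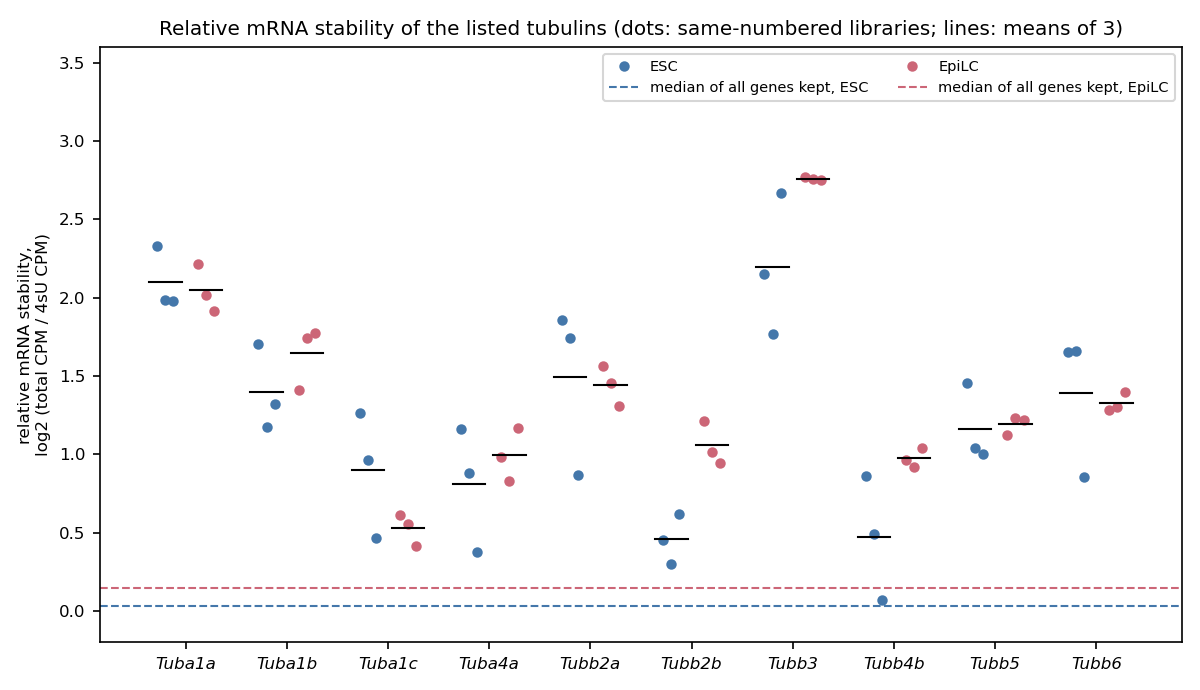
Relative mRNA stability (y axis, log2 of total over 4sU CPM) of the 10 tubulins (x axis), blue for ESCs and red for EpiLCs; dots are same-numbered libraries, black lines are means of 3 and dashed lines are the medians of all genes kept (0.03 and 0.15). Every dot lies above the median of its cell type, with the means of Tubb3 and Tuba1a at the top.

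To compare levels between isotypes, counts were divided by the exonic length given in the table and scaled to a fixed total (TPM, transcript abundance per length), which carry no TMM adjustment. Tubb5 dominated the β-tubulins. It was at 1898, 1779 and 1672 TPM in ESC total RNA and at 2108, 2366 and 2461 TPM in EpiLC total RNA. The groups did not overlap in TPM, while they did in TMM-scaled CPM, so this difference depends on the scaling. Tubb5 ranked 37 among genes with a read in ESCs and 35 in EpiLCs. Of the summed TPM of the 6 listed β-tubulins, Tubb5 held 73.3% ± 2.0 (SD, n = 3) in the ESC and 73.6% ± 0.56 (SD, n = 3) in the EpiLC libraries. Tubb4b followed with 13.4% ± 0.36 and 13.4% ± 0.39 (SD, n = 3 each).

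Behind these, Tubb6 and Tubb2b moved apart. Tubb6 went from 4.91% ± 0.53 to 9.31% ± 0.20 of the β sum from ESCs to EpiLCs, and Tubb2b from 4.59% ± 1.25 to 1.35% ± 0.16 (SD, n = 3 each). In ESCs the shares of these 2 genes overlapped, as Tubb2b reached 6.02% in replicate 3 alone, while in EpiLCs Tubb6 was far above Tubb2b. Tubb3 held 2.03% and 1.53%, and Tubb2a 1.86% and 0.764%.

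Among the listed α-tubulins, the shares in ESCs were more even. Tuba1a held 29.9% ± 0.57, Tuba4a 24.6% ± 3.2, Tuba1b 23.1% ± 0.43 and Tuba1c 22.5% ± 2.3 (SD, n = 3 each), of which the last 3 overlapped. In EpiLCs Tuba1a held 58.0% ± 1.1 (SD, n = 3), from 93.6 TPM in ESCs to 321.1 TPM, and its rank by TPM went from 1532 to 365. Tuba1b then held 15.7%, Tuba1c 14.5% and Tuba4a 11.8%.

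These shares depend on the length used, because unique alignment hides part of the transcripts. With the number of unique 50-base windows as the length, Tuba1a held 26.5% ± 0.30 in ESCs and 52.0% ± 1.2 in EpiLCs (SD, n = 3 each), and Tuba1b 45.1% and 30.9%. The isotype ranked first in ESCs was then Tuba1b and not Tuba1a, while in EpiLCs it was Tuba1a with either length. Among the β-tubulins, Tubb5 then held 61.5% and 63.5% in ESCs and EpiLCs and Tubb4b 23.1% and 23.8%. Tubb2b (6.37% ± 1.7) was above Tubb6 (4.15% ± 0.42) in ESCs by this length, without overlap, and below it in EpiLCs (1.92% against 8.09%; SD, n = 3 each).

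**Figure D5:**
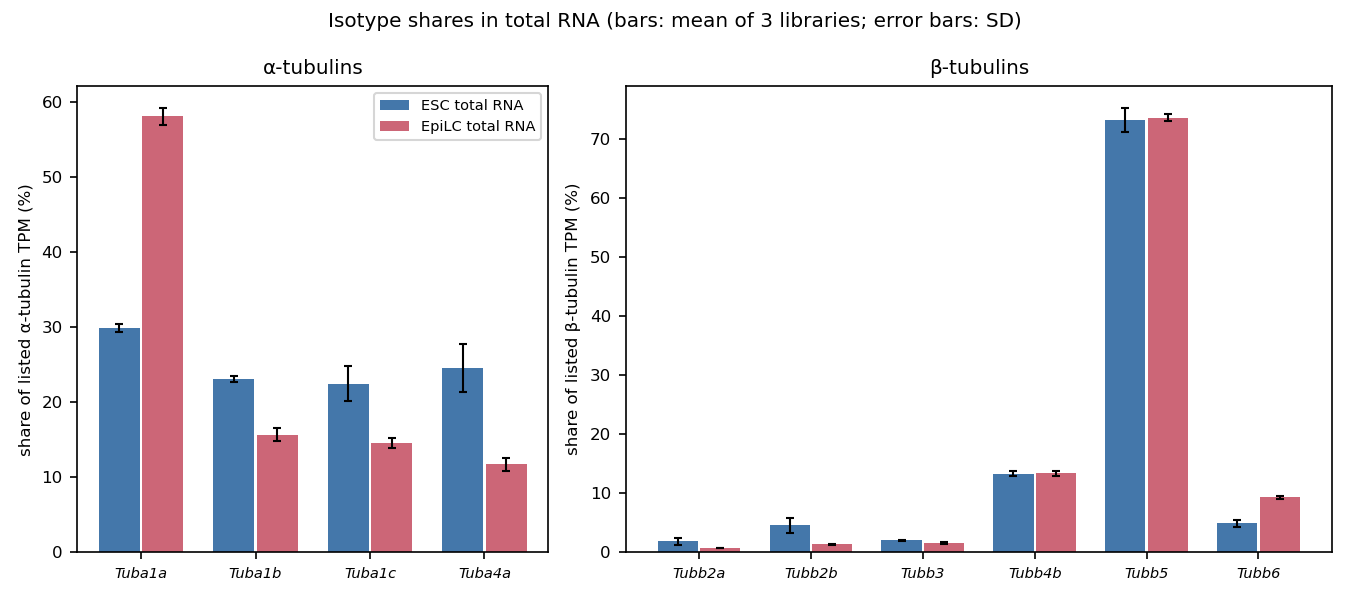
Share of each isotype in the summed TPM of the listed α-tubulins (left, y axis in percent) and β-tubulins (right) in total RNA; bars are means of 3 libraries from 0, error bars are SD, blue ESC and red EpiLC. Tuba1a goes from 29.9% to 58.0% of the α-tubulins, while Tubb5 holds 73.3% and 73.6% of the β-tubulins.

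The ratio of summed α to summed β TPM in total RNA was 0.126, 0.131 and 0.130 in ESCs and 0.187, 0.172 and 0.171 in EpiLCs. All EpiLC libraries were above all ESC libraries, and the exact two-sided permutation test gave p = 0.1, the smallest that 3 against 3 libraries allow. With unique windows as the length the ratio was 0.315 ± 0.0086 for ESCs and 0.438 ± 0.017 for EpiLCs (SD, n = 3 each). Its size therefore depends on the length, while its direction was the same with both. The list does not hold every tubulin gene, and the ratio concerns the mRNA of listed genes only.

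Across the 12 libraries, the genes whose log2 CPM was most like that of Tubb5 were Hmgn1 (Pearson's r = 0.996) and 9130401M01Rik (r = 0.995). For Tubb4b they were Smg5 (r = 0.979) and Rpl35 (r = 0.976), and for Tuba1a Minpp1 (r = 0.995) and Pls3 (r = 0.993). These values describe the pattern over 4 groups that share assay and cell type and carry no test.

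The other genes of the tubulin pathway were followed as lists. Of 10 further tubulins, 5 passed the filter. Tuba3a, an α-tubulin known from testis, was lower in EpiLC mRNA (-2.99 ± 0.38, limma-voom adjusted p = 7.591e-06), from 28.6, 30.7 and 45.6 CPM in ESCs to 3.12, 4.83 and 4.67 CPM. The γ-tubulin gene Tubg1, which serves microtubule nucleation, was called lower in nascent RNA (-1.01 ± 0.22, adjusted p = 0.001386). Tubb4a, named after its values were seen, had at most 6 reads in an ESC total library and 34 or 35 in each EpiLC total library. It passed the filter only through the EpiLC libraries, so no fold or test is given.

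Of the factors of the feedback loop, 12 of 12 listed genes were kept. Ttc5 was at 48.4, 53.8 and 41.9 CPM in ESC total RNA and at 40.1, 45.3 and 44.3 CPM in EpiLC total RNA, and the groups overlapped. Its mRNA change was -0.16 (adjusted p = 0.205) and its nascent change -0.65 (adjusted p = 0.02013). Scaper had an mRNA change of -0.24 (adjusted p = 0.0795). Cnot10, a subunit of the CCR4-NOT complex, was the only gene of this list called in mRNA, at 227.4, 213.7 and 189.1 CPM in ESCs and 96.1, 109.0 and 107.1 CPM in EpiLCs (-1.02 ± 0.08, adjusted p = 7.161e-08). The list thus had 0 called higher and 1 lower, where 16.3% of all genes were called higher and 11.2% lower. With the adjusted p alone, 3 were higher (31.4% of all genes) and 2 lower (32.1% of all genes). The median mRNA change of the list was -0.16.

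Genes for folding of tubulin had no change past both thresholds in mRNA, where 16.3% of all genes were called higher and 11.2% lower. The shares of all genes were 11.9% and 13.5% in nascent RNA, and 1.24% and 0.305% in stability. Of 8 CCT chaperonin subunits, the ring that folds tubulin and actin, 0 were called by limma-voom, edgeR or DESeq2 in any comparison, although at an unadjusted p under 0.05 limma-voom gave 4 in mRNA, 6 in nascent RNA and 5 in stability. With the adjusted p alone, 6 of 8 were higher in nascent RNA (23.7% of all genes) and 3 of 8 lower in stability (1.88% of all genes), namely Cct3, Cct6a and Cct8 at -0.54, -0.50 and -0.60. The median stability change of the 8 was -0.38, beside 0.10 for the 10 tubulins and 0.11 for all genes. Of 6 prefoldin subunits and 7 tubulin cofactors, 0 were called in mRNA by any of the 3 tools, with 3 and 6 at an unadjusted p under 0.05. With the adjusted p alone, 2 of the 7 cofactors were higher in mRNA (31.4% of all genes) and 4 lower (32.1% of all genes), and their median change was -0.42.

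Of 15 tubulin-modifying enzymes kept, 2 were called higher and 3 lower in mRNA, where 16.3% of all genes were called higher and 11.2% lower. Vash2, a carboxypeptidase that removes the last tyrosine of α-tubulin, rose by 3.63 ± 0.20 on the log2 scale (adjusted p = 1.358e-09). Ttll4, a glutamylase, rose by 1.11 ± 0.08 (adjusted p = 3.158e-08). Atat1, the α-tubulin acetyltransferase, changed by -1.09 ± 0.22 (adjusted p = 0.0005607). Of 4 stathmins, which sequester tubulin dimers, 1 was higher and 1 lower, with Stmn2 at -1.73 ± 0.22 (adjusted p = 7.652e-06). The gene called higher, Stmn4, named after its values were seen, had 0 reads in all ESC total libraries and 12 to 20 in the EpiLC total libraries. It passed the filter only through the EpiLC libraries, and no fold or test is given.

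Of 19 microtubule-associated proteins kept, 6 were called higher and 2 lower in mRNA, beside the same 16.3% and 11.2% of all genes. Among the 6 was Dclk1, named after its values were seen. It passed the filter only through the EpiLC libraries, and no fold or test is given. Map2 rose by 2.77 ± 0.19 (adjusted p = 1.552e-08) and Map7d1 by 1.53 ± 0.11 (adjusted p = 1.697e-08). Map7 changed by -1.08 ± 0.09 (adjusted p = 1.311e-07). Mapt, which encodes tau, was the other gene called lower. It passed the filter only through the ESC libraries, and no fold or test is given. By edgeR and by DESeq2, 5 of the 19 were higher and 2 lower.

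Since Tuba1a, Tubb2a, Tubb2b and Tubb3 are prominent in neurons, markers of neurons and neural progenitors were set beside them. The summed level of the 12 marker genes was 318.2 to 447.7 CPM in ESC total RNA and 169.7 to 175.6 CPM in EpiLC total RNA. Stmn2 and Mapt carried most of the ESC sum. The other 10 markers summed to 23.1 to 28.6 CPM in ESC total RNA and 72.2 to 82.8 CPM in EpiLC total RNA, and the median mRNA change of the 8 markers kept was 0.78. Of the 8 kept, 3 were called higher (16.3% of all genes) and 2 lower, Mapt and Stmn2 (11.2% of all genes). Of those called higher, Map2 alone reached a mean of 10 CPM. The others, Elavl3 and Pax6, are named after their values were seen. Pax6, which enters the median, passed the filter only through the EpiLC libraries, and no fold or test is given. Dcx was at 0 in all ESC libraries. Map2, Mapt and Stmn2 also stand in the lists above. The 9 fibroblast markers summed to at most 23.7 CPM in any library, with Dcn and Postn at 0 in ESC total RNA and Lum at 0 in EpiLC total RNA. Of the 5 kept, 2 were called higher in mRNA (16.3% of all genes) and 1 lower (11.2% of all genes), none with a mean of 10 CPM. Of these, Dcn and Col1a2, named after their values were seen, passed the filter only through the EpiLC libraries, and no fold or test is given. The part of such cells in the tubulin changes was not tested.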

How the data were processed

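RNA from mouse ESCs and EpiLCs was sequenced as 4sU and total libraries, 3 per group, from strand-specific single-end reads of 50 bases. The authors trimmed reads with cutadapt 1.14, aligned them with STAR 2.5.3a to mm10, kept unique alignments and deposited raw counts per gene, with the exonic length of each gene, from featureCounts 1.5.3 and GENCODE M14 without ribosomal RNA. Tools and versions are from the submitters' processing notes. The 92 spike-in entries had 0 reads and were left out.

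Changes came from limma-voom (limma 3.58.1, edgeR 4.0.16, R 4.3.3) on genes that reached 3 CPM in 3 or more libraries, after the design of the study. Fitting was tested on simulated data. Sums of isotypes were compared by exact permutation over libraries. Coding starts, 3′ UTRs and unique windows came from GENCODE M21 transcripts, which held 99.6% of gene identifiers. No genome was used, so windows were compared with annotated transcripts only.

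Gene members and lists were chosen with earlier results of these data known. All 10 tubulins are named. From each list, up to 2 called genes per direction and comparison with the greatest change and a mean of at least 10 CPM are named, and Ttc5 and Scaper always. Nearest genes are given for the 3 tubulins with the highest mean TPM in total RNA. Alternatives covered scaling, filters, edgeR, DESeq2 1.42.0, quality weights, replicate blocks and libraries left out. Unique windows as the length was chosen after seeing the data. Reads carried no molecular identifiers, so read totals limit counting error only.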

Additional observations from a re-analysis of the deposited data

How the results depend on the processing

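The calls for Tuba1a, Tubb6 and Tubb2b held under the alternatives run, and no tubulin was called for stability under any of them. With the adjusted p alone, the stability change of 3 tubulins was higher and of 2 lower without both ESC replicate 3 libraries, and of 2 higher and 1 lower with sample quality weights, against 0 in the reported fit. It was 1 higher with library totals only and without ESC 4sU replicate 1 (Tubb4b, 0.55 and 0.64) and without ESC total replicate 3 (Tubb2b, 0.75), and 2 lower without ESC 4sU replicate 3 (Tuba1c, -0.70, and Tubb6, -0.44). Tubb2a decided the count of tubulins lower in mRNA, which was 1 in place of 2 with library totals only and with sample quality weights, and 1 to 2 when libraries were left out. It was 1 without ESC total replicate 3 and without both ESC replicate 3 libraries, where its change was -0.90 and -0.91. The count lower in nascent RNA was 2 in place of 1 by edgeR, DESeq2 and sample quality weights, 4 with the adjusted p alone, and 1 to 2 when libraries were left out. It was 2 without ESC 4sU replicate 1 (Tubb2a, -1.23), without ESC 4sU replicate 3 (Tubb3, -1.04) and without both ESC replicate 3 libraries (Tubb3, -1.12). The cause was not tested.

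Same-numbered 4sU and total libraries correlated in their deviations at 0.174, 0.30 and 0.409 in ESCs and at 0.0714, 0.0299 and 0.0194 in EpiLCs. Differently numbered ESC libraries correlated at -0.383 to 0.296. The deviations are from means of 3 libraries, which ties these values to each other. ESC 4sU replicate 2 correlated with total replicate 1 at 0.296 and with total replicate 2 at 0.30. In ESCs the values thus set replicate 3 apart in both assays and did not settle the pairing of replicates 1 and 2. The tests reported followed the design of the study and used no block, which leaves any pairing out. The SDs of relative stability set same-numbered libraries together, which leaves the means as they are. With a replicate block by number, the count lower in nascent RNA was 2, as Tubb2a was at -1.05 (adjusted p = 0.01089). With a replicate block by culture, the stability change of Tubb2b was 0.60 (adjusted p = 0.01581), past the adjusted p and short of the fold threshold. Over all genes, that block gave 511 stability calls higher and 101 lower, against 182 and 45 without a block.

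Changes of sign were limited to values that no fit called past both thresholds. For mRNA they were Tuba1c at 0.0684 with library totals only, 0.00445 with quality weights, 0.0103 without both ESC replicate 3 libraries and -0.0610 to 0.0287 when libraries were left out, and Tuba1b at -0.0287 without a filter. For stability, Tubb5 was at -0.0581 with median-of-ratios scaling, -0.0566 by DESeq2, -0.0284 with TMM within each assay, -0.0251 with a filter of 10 CPM, -0.0775 without a filter, -0.0364 without both ESC replicate 3 libraries and -0.105 to 0.127 when libraries were left out. Tubb2a was at 0.0673 by edgeR, 0.0118 by DESeq2 and 0.00366 with the block by culture, and -0.607 to 0.163 when libraries were left out. Tuba1a was at 0.0180 with library totals only and -0.194 to 0.0744 when libraries were left out, Tubb6 at -0.441 to 0.0647 and Tuba4a at -0.0177 (without both ESC replicate 3 libraries) to 0.254.

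Summed per-length levels moved with the length. In total RNA, the log2 ratio of EpiLC to ESC was 0.82 for α, 0.37 for β, 0.43 for both and 0.45 for α over β by exonic length, and 0.55, 0.23, 0.26 and 0.32 without length. In 4sU RNA the α sum went from 0.41 to 0.22 without length, the β sum from 0.06 to -0.0398 with unique windows, and α over β from 0.35 to 0.48 with unique windows and 0.18 without length. The read numbers of nascent Tubb2a and Tubb3 limit what their stability values can show.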
